A study of Mus musculus with 6 samples.

Results

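The 41 genes described here encode the liver enzymes that break down tyrosine, tryptophan, histidine, glycine, serine, the branched-chain amino acids, lysine and cysteine, together with the aminotransferases Got1 and Gpt. They were taken by name from the enzymes of these routes, and the list was chosen with earlier results of these data known. They are 41 of the 55491 genes listed and 41 of the 13943 genes that were tested. All 41 passed the filter on low values (a mean of at least 0.5 FPKM, fragments mapped to a gene scaled to its transcript length and to the library's total), and the lowest mean over the 6 livers was 16.0 FPKM for Bcat2.

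Poly(A) RNA was sequenced from whole livers of 3 Chrna2fl/fl;AlbCre and 3 Chrna2fl/fl mice, labelled a, b and c in each genotype. Both genotypes carried floxed Chrna2, the alpha 2 subunit of the nicotinic acetylcholine receptor. The Chrna2fl/fl;AlbCre mice also carried Cre recombinase driven by the albumin promoter, which is active in hepatocytes. The authors describe the knockout as hepatocyte-restricted, and deletion in other liver cells was not examined here. Mice of both genotypes were 7 to 10 weeks old when they began 4 weeks of a high-fat diet (HFD) with 60% of calories from fat, and both received the hepatotoxin CCl4 at 0.5 μl per g of body weight 2 times a week during the later weeks of the diet. The sex of the mice behind these 6 libraries is not given in the sources used here, and no liver without HFD plus CCl4 was analysed here.

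Amino acid catabolism is concentrated in hepatocytes. The aminotransferases move nitrogen toward urea, and the carbon skeletons are broken down, only in part in mitochondria, to pyruvate, ketone bodies or intermediates of the citric acid cycle. The routes of tyrosine, tryptophan and histidine run almost wholly in the liver, whereas the first transamination of the branched-chain amino acids takes place mainly outside it, and the liver receives their keto acids. Inherited loss of several of these enzymes in humans causes metabolic disease, such as tyrosinemia, maple syrup urine disease, isovaleric acidemia and glutaric aciduria.

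Chrna2 itself stood at 0.36, 0.03 and 0.32 FPKM in Chrna2fl/fl;AlbCre livers and at 1.24, 1.2 and 2.64 FPKM in Chrna2fl/fl livers. The Cre transgene was at 3.31, 2.76 and 4.34 FPKM in Chrna2fl/fl;AlbCre livers and listed at 0 in the Chrna2fl/fl livers, so the 6 libraries matched their labels. General hepatocyte markers had summed levels of 73631 to 87421 FPKM in Chrna2fl/fl;AlbCre livers and 72937 to 99099 FPKM in Chrna2fl/fl livers, which matches liver tissue in both genotypes. Sequencing depth, recovered from the spacing of small FPKM values, was 9.14 to 9.38 M fragments in Chrna2fl/fl;AlbCre libraries and 17.4 to 18.1 M fragments in Chrna2fl/fl libraries. Depth and genotype therefore cannot be told apart in these data.

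As a group the amino acid catabolism genes had lower levels in Chrna2fl/fl;AlbCre than in Chrna2fl/fl livers, by a median log2 fold change of -0.33, while the median over all 13943 genes tested was 0.19. Of the 41 genes, 38 had a negative log2 fold change, 39 with median-ratio or quantile scaling, where Gcsh was negative too, and 34 with centring on hepatocyte markers, where Amt, Bcat2, Gldc and Tat were positive. The 3 others in the values as deposited were Acmsd, Gcsh and Sdsl. Among all genes tested, 29.7% were negative as deposited, 50.8% with median-ratio scaling, 50.7% with quantile scaling and 21.1% with hepatocyte centring. The estimates ran from -0.91 for Sardh, which oxidizes sarcosine, to 0.38 for Acmsd, which diverts tryptophan carbon away from NAD synthesis. The fold changes are on the log2(FPKM + 0.1) scale and come from limma.

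No member passed an adjusted p under 0.05, and neither did any other gene (0% of those tested). At an unadjusted p under 0.05, 14 of the 41 members (34.1%) were lower and 0 were higher in Chrna2fl/fl;AlbCre livers, against 3.02% of all genes lower and 13.2% higher. These 14 were Hpd and Hgd for tyrosine, Haao for tryptophan, Uroc1 for histidine, Dmgdh and Sardh for glycine, Bckdha, Bckdhb, Ivd, Hibadh and Aldh6a1 for the branched chains, Gcdh for lysine, Got1 and Cdo1. In 20 members (48.8%) every Chrna2fl/fl;AlbCre liver lay below every Chrna2fl/fl liver and in 0 members every one lay above, against 4.34% and 18.7% of all genes. The count of 14 was 8 without Chrna2fl/fl;AlbCre liver c and 7 without Chrna2fl/fl liver c. Without Chrna2fl/fl liver b, Gcdh passed the adjusted threshold with a lower level, as 1 of 15 lower and 96 higher genes among the 13988 then tested.

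How the libraries are scaled moves these figures. Median-ratio scaling brought the median of all genes to -0.01 and that of the members to -0.52, with 31 members lower at an unadjusted p under 0.05, against 7.78% of all genes. Over all genes it gave 1085 lower and 850 higher at that p, where the values as deposited gave 421 lower and 1842 higher. Centring on general hepatocyte markers gave a median of -0.22 for the members and 0.29 for all genes, with 8 members lower at that p, against 1.58% of all genes. The distance between the members' median and that of all genes was -0.51 as deposited, -0.52 with median-ratio scaling, -0.41 with quantile normalization and -0.51 with hepatocyte centring. Median-ratio scaling and hepatocyte centring shift every gene of a library alike and so leave this distance nearly fixed. Of these settings only quantile normalization could move it by much.

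**Figure D1:**
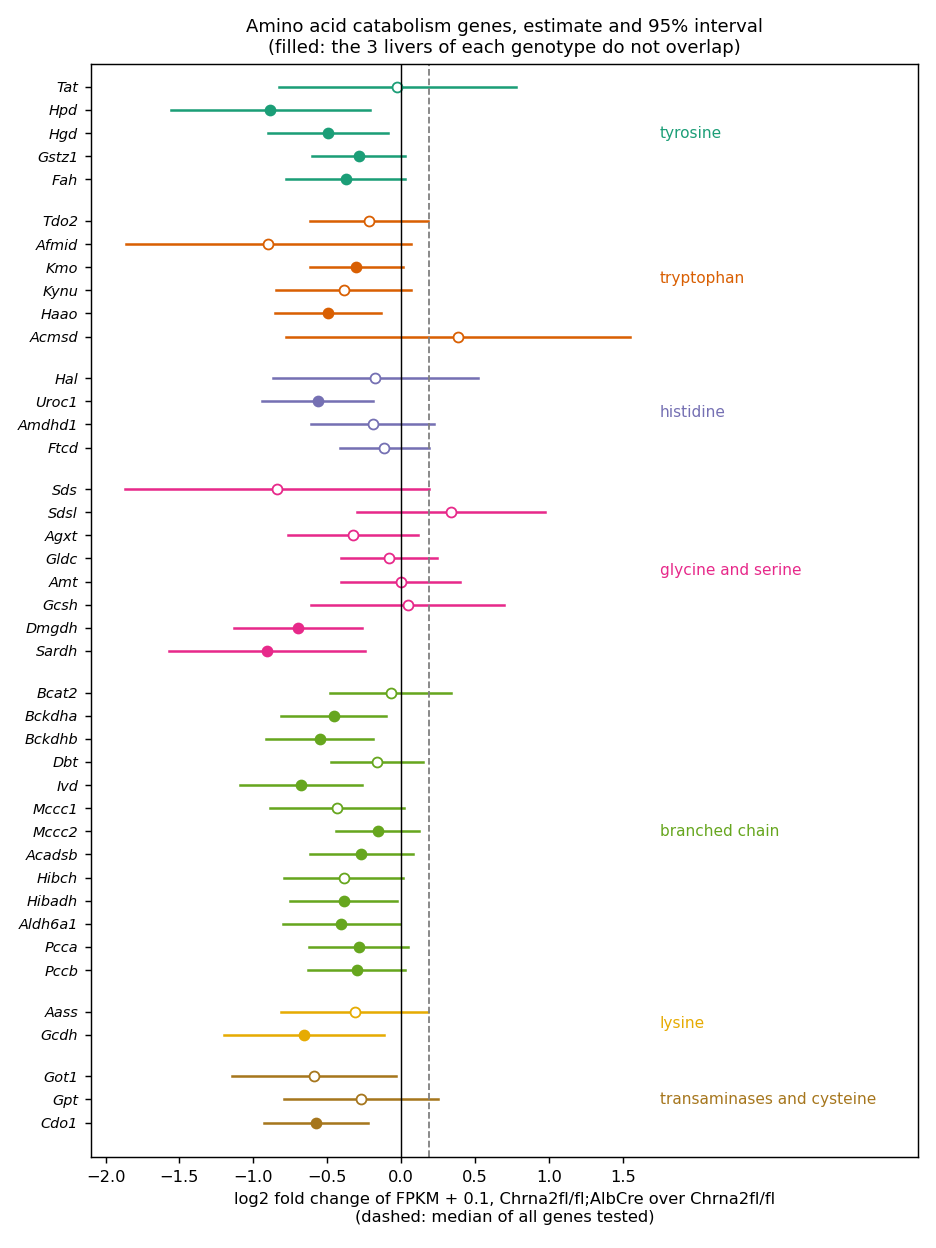
Log2 fold change of FPKM + 0.1, Chrna2fl/fl;AlbCre over Chrna2fl/fl, for the 41 members by pathway (points, with 95% intervals from limma as lines), filled where the 3 livers of each genotype do not overlap. The dashed line marks the median of all genes tested, 0.19. In the values as deposited 38 of the 41 points lie left of 0, against 29.7% of all genes.

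The 41 members summed to 7445, 7345 and 5417 FPKM in Chrna2fl/fl;AlbCre livers a, b and c, and to 9134, 8727 and 9585 FPKM in Chrna2fl/fl livers. That is 0.915%, 0.895% and 0.664% of all FPKM in Chrna2fl/fl;AlbCre livers, against 1.13%, 1.07% and 1.14% in Chrna2fl/fl livers. The genotypes did not overlap, and Chrna2fl/fl;AlbCre liver c stood apart below the other two of its genotype. The mean log2 deviation of the members from the average of the 6 livers was -0.02, -0.08 and -0.42 in Chrna2fl/fl;AlbCre livers and 0.15, 0.15 and 0.24 in Chrna2fl/fl livers. Liver c of the Chrna2fl/fl;AlbCre genotype was the lowest of the 6 for 32 of the 41 members, while Chrna2fl/fl liver c was the highest for 17, Chrna2fl/fl livers a and b for 10 each, and the Chrna2fl/fl;AlbCre livers for 4 in all.

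**Figure D2:**
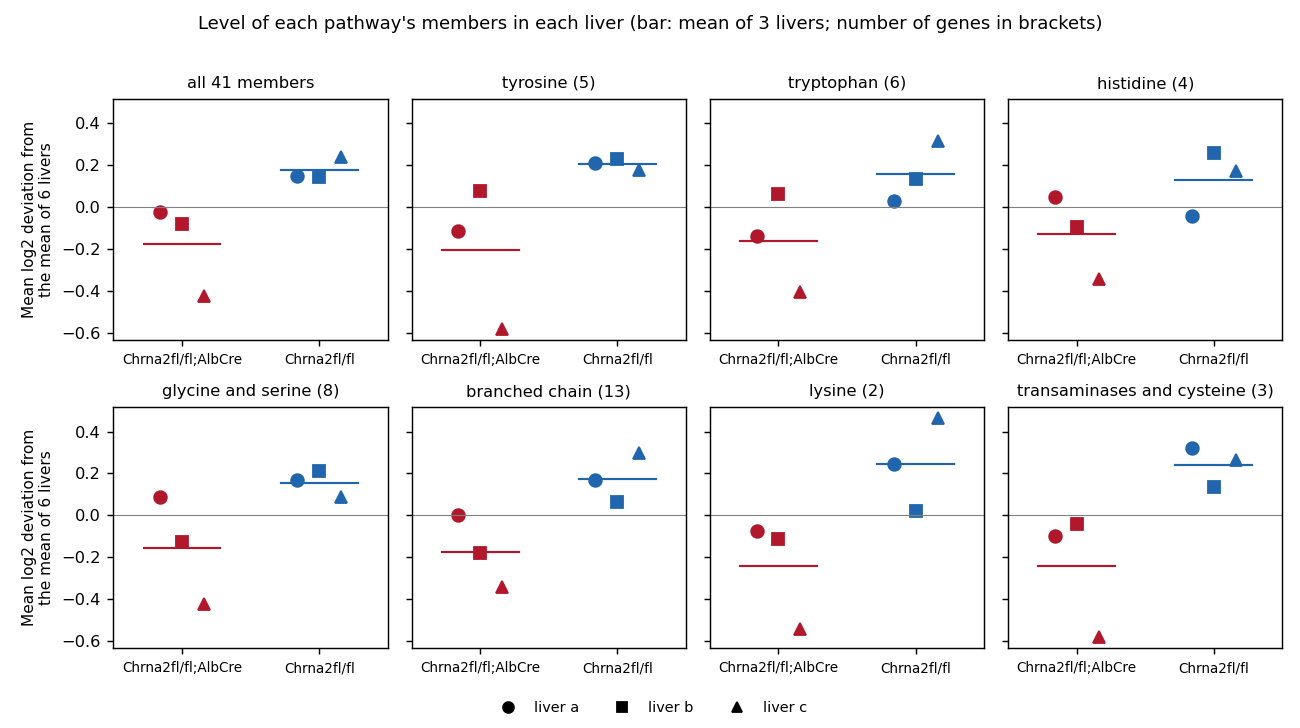
Mean log2 deviation from the average of the 6 livers, for all 41 members and for each pathway (number of genes in brackets), with 1 point per liver and a bar at the mean of 3 livers. Over all members the Chrna2fl/fl;AlbCre livers lie at -0.02, -0.08 and -0.42 and the Chrna2fl/fl livers at 0.15 to 0.24. The genotypes overlap for tryptophan, histidine, and glycine and serine.

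Markers of hepatocyte zones and of other cells were set beside these levels. Summed levels of pericentral hepatocyte markers were 398 to 688 FPKM in Chrna2fl/fl;AlbCre livers and 1043 to 3632 FPKM in Chrna2fl/fl livers, mostly from Cyp2e1, and 5 of the 7 tested were lower at an unadjusted p under 0.05, while Glul (-0.23) and Oat (0.07) were not. Those of periportal markers, with no member among them, were 3156 to 4406 FPKM in Chrna2fl/fl;AlbCre livers and 5142 to 5549 FPKM in Chrna2fl/fl livers, with 6 of 8 estimates negative and those of Cdh1 (0.80, no overlap) and Sox9 (0.54) positive. Of all genes tested, 29.7% had a negative estimate. The 9 general hepatocyte markers tested, whose sums overlapped, had 6 negative estimates and a median of -0.11. Among them Apoa2 (-0.60) was lower and Ahsg (0.39) higher without overlap. At an unadjusted p under 0.05, 3.02% of all genes were lower and 13.2% higher. Without overlap, 4.34% of all genes lay lower and 18.7% higher. All 10 stellate cell and myofibroblast markers had positive log2 fold changes, 4 of them past an unadjusted p under 0.05, with overlapping sums of 123 to 284 FPKM in Chrna2fl/fl;AlbCre livers and 38.0 to 210.4 FPKM in Chrna2fl/fl livers. All 10 macrophage markers were positive as well, 3 of them past that p, with overlapping sums of 285 to 575 FPKM in Chrna2fl/fl;AlbCre livers and 198 to 339 FPKM in Chrna2fl/fl livers. The 6 endothelial markers, all positive and 2 past that p, had sums of 42.2 to 71.2 FPKM in Chrna2fl/fl;AlbCre livers and 26.2 to 41.6 FPKM in Chrna2fl/fl livers, without overlap. Chrna2fl/fl;AlbCre liver c, the lowest for the members, had the lowest pericentral, periportal, stellate and endothelial sums of its genotype. In whole tissue fewer hepatocytes of a kind and less RNA per hepatocyte cannot be told apart, and the part of these cell types in the members' levels was not tested.

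Because the members had lower levels together, the 200 bases upstream of their RefSeq start sites (GRCm38.p6) were searched for 10 short motifs on both strands, and 35 of the 41 members had a promoter in the RefSeq table. No motif in this set contains another. The nuclear receptor core motif AGGTCA, which HNF4A and RXR heterodimers recognize in various arrangements, was in 7 promoters (20%), those of Aass, Bckdhb, Haao, Hgd, Pcca, Tdo2 and Uroc1, and in 11.2% of 27025 promoters of all genes. The Kruppel-like factor box CACCC was in 65.7% of members' promoters and 44.9% of all. The CCAAT box (CCAAT itself) was in 51.4% of members' promoters and 30.02% of all. The GC box GGGCGG was in 42.9% of members' promoters and 31.3% of all. Shares closer to the background, or below it, were found for the CREB core motif TGACG (14.3% of members and 15.8% of all), the TATA box TATAAA (8.57% and 10.6%), the glucocorticoid receptor core motif AGAACA (8.57% and 12.9%) and the HNF1 core motif GTTAAT (5.71% and 5.09%). The forkhead core TGTTTAC and the C/EBP palindrome TTGCGCAA were in 0 of the members' promoters, against 2.44% and 0.137% of all. All members passed the filter on low values, while the 27025 promoters were not limited to genes that passed it. The members' shares and the background are therefore not matched for expression. A match of letters is a description of the window and not a binding site.

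The upstream 200 bases are printed for Haao, Uroc1 and Bckdhb, members with an AGGTCA match whose livers did not overlap. Hgd and Pcca also met both conditions and are not printed. Those of Bckdk, the kinase of the branched-chain complex described with it further on, are printed too and hold no match. Capitals mark AGGTCA or its reverse complement, and the sequences, from RefSeq, run 5′ to 3′ on the gene's strand up to the base before the start site. Haao lies at chr17:83846791-83846990 on the minus strand (match 58 bases before the start), within the longer Haao model of the GENCODE annotation, while the other windows end at or next to the GENCODE start of their genes. Uroc1 lies at chr6:90333089-90333288 on the plus strand (match 104 bases before). The first of the 2 promoters listed for Bckdhb lies at chr9:83924937-83925136 on the plus strand (match 119 bases before), and that of Bckdk at chr7:127903873-127904072 on the plus strand.
Haao: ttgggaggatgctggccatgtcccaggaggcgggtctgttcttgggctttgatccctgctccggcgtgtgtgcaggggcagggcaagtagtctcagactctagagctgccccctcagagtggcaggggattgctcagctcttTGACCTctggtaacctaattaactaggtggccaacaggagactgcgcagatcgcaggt
Uroc1: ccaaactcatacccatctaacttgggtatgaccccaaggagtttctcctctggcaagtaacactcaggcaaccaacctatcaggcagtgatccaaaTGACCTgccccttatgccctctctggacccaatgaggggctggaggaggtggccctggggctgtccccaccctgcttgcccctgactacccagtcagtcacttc
Bckdhb: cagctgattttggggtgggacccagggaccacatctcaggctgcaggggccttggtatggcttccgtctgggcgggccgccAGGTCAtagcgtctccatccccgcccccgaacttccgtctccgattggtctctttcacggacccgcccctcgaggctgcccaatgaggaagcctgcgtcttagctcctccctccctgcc
Bckdk: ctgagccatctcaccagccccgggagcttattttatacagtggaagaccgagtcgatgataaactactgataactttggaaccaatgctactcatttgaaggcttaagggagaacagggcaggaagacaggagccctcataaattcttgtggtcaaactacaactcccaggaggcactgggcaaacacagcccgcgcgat

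Tyrosine breakdown runs through 5 members in a chain, with a median log2 fold change of -0.38. From its second step onward every enzyme was lower in each Chrna2fl/fl;AlbCre liver than in any Chrna2fl/fl liver, against 4.34% of all genes. At an unadjusted p under 0.05, 2 of the 5 were lower, against 3.02% of all genes. Hpd, hydroxyphenylpyruvate dioxygenase, carries out the second step and had the highest mean of all 41 members. Its level was 866, 985 and 503 FPKM in Chrna2fl/fl;AlbCre livers and 1525, 1070 and 1658 FPKM in Chrna2fl/fl livers. Liver c was lowest in the first genotype and liver b in the second, and the genotypes did not overlap. The Chrna2fl/fl;AlbCre mean was 55.3% of the Chrna2fl/fl mean, a log2 fold change of -0.89 ± 0.29 (SE, n = 3 each; 95% interval -1.56 to -0.21), with a limma adjusted p of 0.266.

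Hgd, homogentisate dioxygenase, opens the aromatic ring. It was at 258, 248 and 179 FPKM in Chrna2fl/fl;AlbCre livers, against 287, 339 and 331 FPKM in Chrna2fl/fl livers, a log2 fold change of -0.49 ± 0.17 (SE, adjusted p = 0.275). Fah, fumarylacetoacetate hydrolase, whose loss causes hereditary tyrosinemia in humans, closes the route. It was at 337, 354 and 248 FPKM in Chrna2fl/fl;AlbCre livers and 435, 361 and 412 FPKM in Chrna2fl/fl livers (-0.38 ± 0.17, adjusted p = 0.325). For both genes Chrna2fl/fl;AlbCre liver c was lowest, and for Fah the nearest livers of the 2 genotypes almost met. Gstz1, maleylacetoacetate isomerase, averaged 357 ± 43.2 FPKM in Chrna2fl/fl;AlbCre livers and 434 ± 13.4 FPKM in Chrna2fl/fl livers (SD, n = 3 each). Tat, the aminotransferase that feeds the chain and is induced by glucocorticoids, showed no separation, with 395 ± 155 FPKM in Chrna2fl/fl;AlbCre livers and 402 ± 154 FPKM in Chrna2fl/fl livers. Its 95% interval of the log2 fold change, -0.83 to 0.78, is wide.

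Tryptophan catabolism along the kynurenine route had 5 of 6 members with negative estimates, a median of -0.35, and 1 member, Haao, past an unadjusted p under 0.05. Among all genes 29.7% were negative and 3.02% were lower at that p. Haao, hydroxyanthranilate dioxygenase, makes the precursor of quinolinate and so of NAD. It was at 255.5, 274 and 198 FPKM in Chrna2fl/fl;AlbCre livers and at 329, 328 and 360 FPKM in Chrna2fl/fl livers (-0.49 ± 0.15, adjusted p = 0.256). All Chrna2fl/fl livers lay close together, above each Chrna2fl/fl;AlbCre liver. Kmo, kynurenine monooxygenase, was at 87.5, 87.9 and 86.2 FPKM in Chrna2fl/fl;AlbCre livers and 94.2, 107 and 124 FPKM in Chrna2fl/fl livers (-0.30 ± 0.13, adjusted p = 0.321). Here the Chrna2fl/fl;AlbCre livers were almost equal and the spread was in the Chrna2fl/fl livers.

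Afmid, arylformamidase, releases kynurenine from its formyl form. It was at 37.7, 45.3 and 15.9 FPKM in Chrna2fl/fl;AlbCre livers and 67.6, 38.7 and 67.5 FPKM in Chrna2fl/fl livers (-0.90 ± 0.41, adjusted p = 0.327). The genotypes overlapped, since Chrna2fl/fl liver b lay below Chrna2fl/fl;AlbCre liver b. Tdo2, the dioxygenase that starts the route, had the third highest mean of the members, with 943, 653 and 681 FPKM in Chrna2fl/fl;AlbCre livers and 820, 893 and 902 FPKM in Chrna2fl/fl livers (-0.22 ± 0.17, adjusted p = 0.518). The highest of the 6 livers was a Chrna2fl/fl;AlbCre one. Kynu, kynureninase, averaged 61.4 ± 16.0 FPKM in Chrna2fl/fl;AlbCre livers and 79.0 ± 7.72 FPKM in Chrna2fl/fl livers, and Acmsd 24.6 ± 14.5 FPKM in Chrna2fl/fl;AlbCre livers and 17.3 ± 6.42 FPKM in Chrna2fl/fl livers, both with overlap. The sign for Acmsd turned when Chrna2fl/fl;AlbCre liver b was left out (-0.06).

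Histidine is turned into glutamate by 4 enzymes in sequence, and all 4 estimates were negative (29.7% of all genes were), with a median of -0.18. A single member was past an unadjusted p under 0.05, where 3.02% of all genes were lower. That member was Uroc1, urocanate hydratase, the second step. It was at 87.5, 92.8 and 75.2 FPKM in Chrna2fl/fl;AlbCre livers and 142, 105 and 133 FPKM in Chrna2fl/fl livers. No livers overlapped, and the Chrna2fl/fl;AlbCre mean was 67.2% of the Chrna2fl/fl mean (-0.57 ± 0.16, 95% interval -0.94 to -0.19, adjusted p = 0.255). The neighbouring steps did not separate the genotypes. Amdhd1, imidazolonepropionase, was at 134, 98.2 and 106 FPKM in Chrna2fl/fl;AlbCre livers and 108, 150.98 and 127.5 FPKM in Chrna2fl/fl livers (-0.19 ± 0.18, adjusted p = 0.586). Ftcd, which passes the formimino group of histidine to tetrahydrofolate, was at 223, 212 and 207 FPKM in Chrna2fl/fl;AlbCre livers and 207, 258 and 232 FPKM in Chrna2fl/fl livers (-0.11 ± 0.13, adjusted p = 0.648). Hal, histidine ammonia lyase, which starts the route, averaged 162 ± 48.9 FPKM in Chrna2fl/fl;AlbCre livers and 181 ± 50.6 FPKM in Chrna2fl/fl livers.

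Among the 8 glycine and serine genes, whose median was -0.20, 2 were past an unadjusted p under 0.05, where 3.02% of all genes were lower. These were the mitochondrial demethylating enzymes Dmgdh and Sardh, which hand methyl groups of dimethylglycine and sarcosine to folate. Dmgdh was at 101, 86.5 and 82.5 FPKM in Chrna2fl/fl;AlbCre livers and 172, 113 and 158 FPKM in Chrna2fl/fl livers (-0.70 ± 0.18, 95% interval -1.13 to -0.27, adjusted p = 0.255). Sardh was at 192, 227 and 113 FPKM in Chrna2fl/fl;AlbCre livers and 381, 252 and 338 FPKM in Chrna2fl/fl livers (-0.91 ± 0.28, 95% interval -1.57 to -0.25, adjusted p = 0.256). In both genes the genotypes did not overlap, and Chrna2fl/fl liver b was the lowest of its genotype. The Chrna2fl/fl;AlbCre mean was 60.9% of the Chrna2fl/fl mean for Dmgdh and 54.8% for Sardh.

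Sds, serine dehydratase, turns serine into pyruvate for gluconeogenesis. It was at 159, 138 and 47.4 FPKM in Chrna2fl/fl;AlbCre livers and 148, 185 and 217 FPKM in Chrna2fl/fl livers (-0.84 ± 0.44, adjusted p = 0.368). The genotypes overlapped, and without Chrna2fl/fl;AlbCre liver c, by far the lowest, the estimate was -0.29. Its paralog Sdsl averaged 26.9 ± 4.11 FPKM in Chrna2fl/fl;AlbCre livers and 22.1 ± 8.76 FPKM in Chrna2fl/fl livers, and reads shared by the 2 copies would have been split by the estimation step. Gldc, Amt and Gcsh, the subunits of the glycine cleavage system among the members, had estimates of -0.08, -0.0038 and 0.04. Their signs turned with scaling or with a library left out, so no direction is given for them. Agxt, which detoxifies glyoxylate with alanine, averaged 211 ± 43.5 FPKM in Chrna2fl/fl;AlbCre livers and 261 ± 31.5 FPKM in Chrna2fl/fl livers (-0.33 ± 0.19, adjusted p = 0.402).

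**Figure D3:**
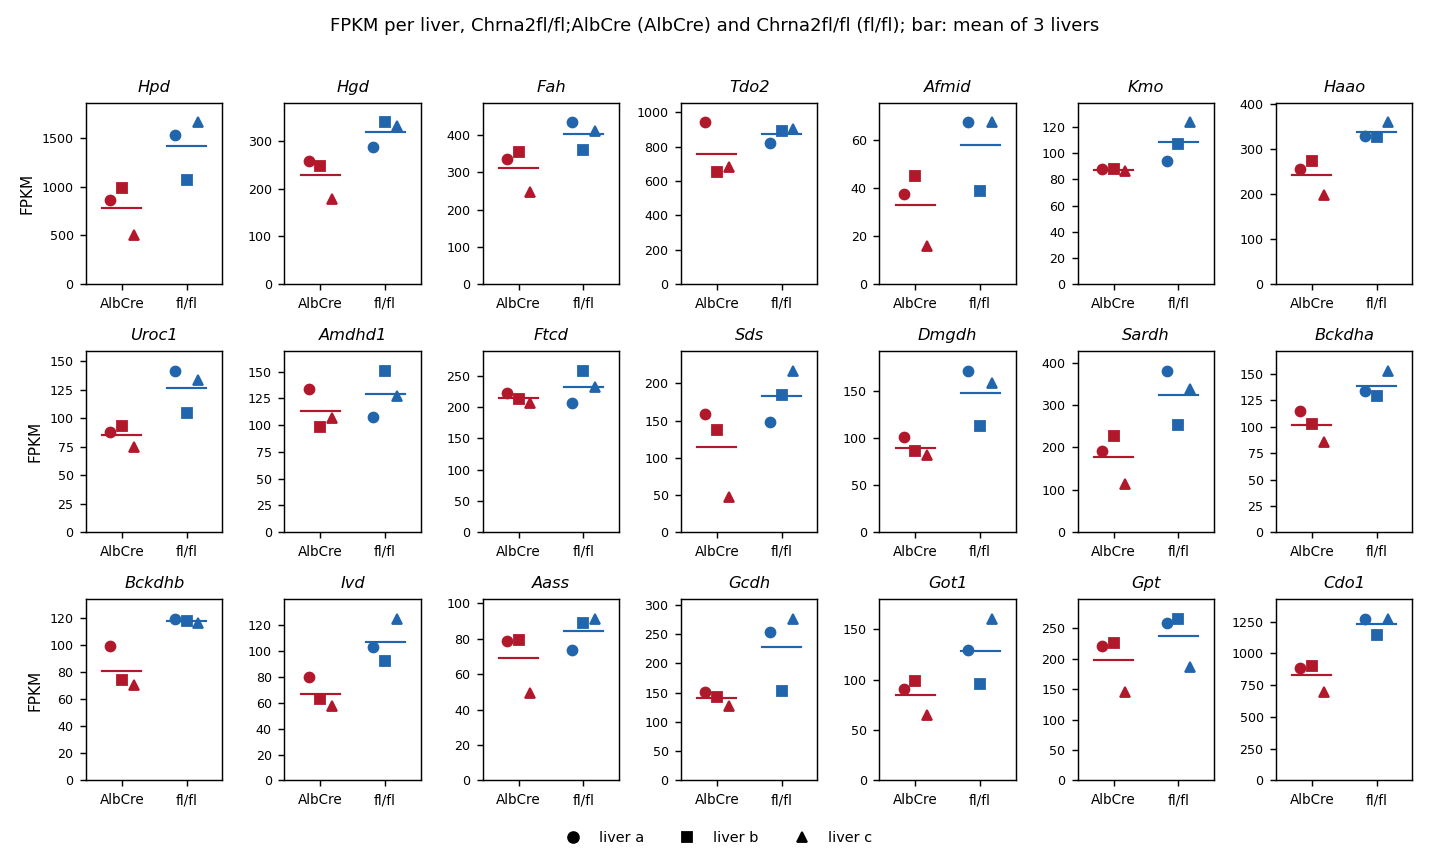
FPKM in each liver (1 point each) for 21 members, with bars at the mean of the 3 livers of a genotype, Chrna2fl/fl;AlbCre left and Chrna2fl/fl right, and every axis starting at 0. Hpd, Haao, Bckdhb, Ivd and Cdo1 are among those whose genotypes do not overlap, while Tdo2, Amdhd1, Ftcd and Gpt overlap.

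The branched-chain route was the largest set. All 13 members had negative estimates, with a median of -0.39, 5 were past an unadjusted p under 0.05, and in 9 the genotypes did not overlap. Among all genes 29.7% had a negative estimate, 3.02% were lower at that p and 4.34% lay lower without overlap. The estimate of Bcat2, the first of the 13 in the route, turned positive under hepatocyte centring (0.03). The irreversible step is taken by the branched-chain keto acid dehydrogenase, whose catalytic subunits are encoded by Bckdha and Bckdhb and whose core is encoded by Dbt.

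Bckdha was at 115, 103 and 85.8 FPKM in Chrna2fl/fl;AlbCre livers and 134, 129 and 153 FPKM in Chrna2fl/fl livers (-0.46 ± 0.15, adjusted p = 0.269). Bckdhb was at 98.9, 73.8 and 70.2 FPKM in Chrna2fl/fl;AlbCre livers and 119, 117 and 116 FPKM in Chrna2fl/fl livers (-0.55 ± 0.16, 95% interval -0.92 to -0.19, adjusted p = 0.255). The Chrna2fl/fl livers were nearly equal for Bckdhb, and every Chrna2fl/fl;AlbCre liver lay below them for both genes. Dbt averaged 42.3 ± 5.05 FPKM in Chrna2fl/fl;AlbCre livers and 47.1 ± 1.27 FPKM in Chrna2fl/fl livers (-0.16 ± 0.13, adjusted p = 0.539), with overlap.

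The complex is switched off when the kinase Bckdk phosphorylates it and switched on by the phosphatase Ppm1k, and these 2 regulators, which are not among the 41 genes, differed in opposite directions. Bckdk was at 15.3, 12.8 and 13.6 FPKM in Chrna2fl/fl;AlbCre livers and 7.97, 8.20 and 9.27 FPKM in Chrna2fl/fl livers. Every Chrna2fl/fl;AlbCre liver lay above every Chrna2fl/fl liver, at a mean of 164% of the Chrna2fl/fl mean (0.71 ± 0.14, 95% interval 0.37 to 1.04, adjusted p = 0.245). Among all genes 18.7% lay higher without overlap and 4.34% lower, and their median log2 fold change was 0.19. The estimate of Bckdk stayed between 0.51 (median-ratio scaling) and 0.81 (hepatocyte centring) over the alternatives that kept all livers. Ppm1k was at 17.4, 21.7 and 16.3 FPKM in Chrna2fl/fl;AlbCre livers and 22.2, 24.4 and 27.8 FPKM in Chrna2fl/fl livers (-0.43 ± 0.16, adjusted p = 0.286), with no overlap but livers b and a of the 2 genotypes close together. Dld, the subunit that this complex shares with other dehydrogenases, averaged 63.6 ± 8.05 FPKM in Chrna2fl/fl;AlbCre livers and 67.8 ± 5.16 FPKM in Chrna2fl/fl livers. Phosphorylation of the complex was not measured.

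**Figure D4:**
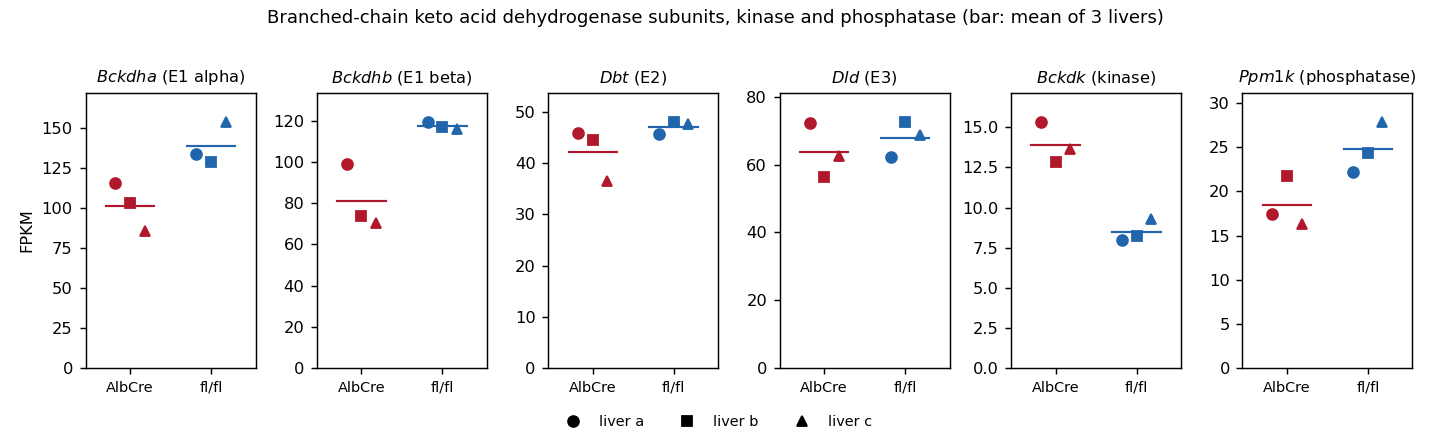
FPKM in each liver for the branched-chain keto acid dehydrogenase subunits, their kinase Bckdk and their phosphatase Ppm1k, with bars at the mean of 3 livers and axes from 0, Chrna2fl/fl;AlbCre left. Bckdha, Bckdhb and Ppm1k lie lower in every Chrna2fl/fl;AlbCre liver than in any Chrna2fl/fl liver, Bckdk lies higher, and Dbt and Dld overlap.

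Downstream of the complex, Ivd, isovaleryl-CoA dehydrogenase of the leucine branch, had the lowest estimate of the route. It was at 79.6, 63.0 and 57.3 FPKM in Chrna2fl/fl;AlbCre livers and 103, 91.9 and 125 FPKM in Chrna2fl/fl livers. The genotypes did not overlap, and the Chrna2fl/fl;AlbCre mean was 62.5% of the Chrna2fl/fl mean (-0.68 ± 0.18, 95% interval -1.09 to -0.27, adjusted p = 0.255). Mccc1 and Mccc2, the subunits of the next leucine enzyme, had estimates of -0.43 and -0.16, and only the livers of Mccc2 did not overlap. For isoleucine, Acadsb, an acyl-CoA dehydrogenase, averaged 47.2 ± 3.34 FPKM in Chrna2fl/fl;AlbCre livers and 57.2 ± 8.97 FPKM in Chrna2fl/fl livers, without overlap.

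In the valine branch, Hibch, a thioester hydrolase, averaged 52.9 ± 6.68 FPKM in Chrna2fl/fl;AlbCre livers and 69.6 ± 12.2 FPKM in Chrna2fl/fl livers, with overlap. Hibadh, hydroxyisobutyrate dehydrogenase, averaged 132 ± 18.1 FPKM in Chrna2fl/fl;AlbCre livers and 172 ± 19.9 FPKM in Chrna2fl/fl livers (-0.39 ± 0.15, adjusted p = 0.290). Aldh6a1, methylmalonate semialdehyde dehydrogenase, averaged 85.7 ± 9.54 FPKM in Chrna2fl/fl;AlbCre livers and 114 ± 21.4 FPKM in Chrna2fl/fl livers (-0.40 ± 0.17, adjusted p = 0.302). Neither Hibadh nor Aldh6a1 overlapped between genotypes. Pcca and Pccb, the subunits of propionyl-CoA carboxylase, where the isoleucine and valine branches meet, had like estimates of -0.29 and -0.30, and in both every Chrna2fl/fl;AlbCre liver lay below every Chrna2fl/fl liver.

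Lysine is degraded through Aass, which makes and cleaves saccharopine, and later through Gcdh, glutaryl-CoA dehydrogenase, which also serves tryptophan. Gcdh was at 152, 143 and 127 FPKM in Chrna2fl/fl;AlbCre livers and 254, 154 and 276 FPKM in Chrna2fl/fl livers. Chrna2fl/fl liver b stood near the Chrna2fl/fl;AlbCre livers and far from the others of its genotype, although the genotypes did not overlap. The estimate was -0.66 ± 0.23 (adjusted p = 0.276), and without Chrna2fl/fl liver b it was -0.92 with a limma adjusted p of 0.0496. Aass was at 78.6, 79.5 and 49.4 FPKM in Chrna2fl/fl;AlbCre livers and 73.5, 88.7 and 91.4 FPKM in Chrna2fl/fl livers (-0.32 ± 0.21, adjusted p = 0.460), with overlap.

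Cdo1, cysteine dioxygenase, starts the route from cysteine to taurine and sulfate and had the second highest mean of the 41 genes and the smallest unadjusted p among them. It was at 887, 904 and 694 FPKM in Chrna2fl/fl;AlbCre livers and 1273, 1147 and 1268 FPKM in Chrna2fl/fl livers. The gap between the nearest livers was wider than the spread within the Chrna2fl/fl genotype, and the Chrna2fl/fl;AlbCre mean was 67.4% of the Chrna2fl/fl mean (-0.58 ± 0.15, 95% interval -0.93 to -0.23, adjusted p = 0.255). Got1, the cytosolic aspartate aminotransferase, was at 91.3, 98.5 and 65.2 FPKM in Chrna2fl/fl;AlbCre livers and 130, 95.8 and 161 FPKM in Chrna2fl/fl livers (-0.59 ± 0.23, adjusted p = 0.292), and Chrna2fl/fl liver b overlapped the other genotype. Gpt, the alanine aminotransferase measured in plasma as a sign of liver injury, was at 221, 226 and 145 FPKM in Chrna2fl/fl;AlbCre livers and 258, 266 and 186 FPKM in Chrna2fl/fl livers (-0.27 ± 0.22, adjusted p = 0.538). For Gpt, liver c was the lowest in both genotypes and the genotypes overlapped.

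Further enzymes of the same routes, 59 of which were tested, had 43 negative estimates and a median of -0.23, where 29.7% of all genes were negative. At an unadjusted p under 0.05, 18 of the 59 (30.5%) were lower and 2 were higher, against 3.02% and 13.2% of all genes. Gnmt, which methylates glycine to sarcosine, the substrate of Sardh, was at 437, 515 and 394 FPKM in Chrna2fl/fl;AlbCre livers and 1401, 722 and 1175 FPKM in Chrna2fl/fl livers. No livers overlapped (-1.25 ± 0.25, adjusted p = 0.245), and without Chrna2fl/fl liver b the limma adjusted p was 0.0371. Pts, an enzyme of tetrahydrobiopterin synthesis, had an estimate of -0.48, also without overlap.

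Beside the tryptophan members, 7 further genes were tested, and 5 of them had positive estimates. Their median was 0.20, near the 0.19 of all genes, unlike the negative median of the further enzymes together. Aadat, an aminotransferase that makes kynurenic acid, had an estimate of -0.60 and Kyat1, another such aminotransferase, one of 0.28. Auh, which hydrates the product of the Mccc1 and Mccc2 enzyme in the leucine branch, had an estimate of -0.57, Aldh7a1, which follows Aass in lysine breakdown, -0.49, and Sugct, which acts on glutarate, -0.80. Hoga1, of hydroxyproline breakdown, had an estimate of -0.68, Csad, which follows Cdo1 on the way to taurine, -0.81, and Gpt2, the mitochondrial alanine aminotransferase, -0.59. Of the 8 genes named here, Kyat1 and Gpt2 overlapped between genotypes and the others did not. Among all genes 4.34% lay lower without overlap.

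Of 11 regulators of these routes, transcription regulators apart from the glucagon receptor Gcgr, 10 had negative estimates (Gcgr among them), against 29.7% of all genes. Their median was -0.18, and 0 passed an unadjusted p under 0.05, against 3.02% of all genes lower and 13.2% higher. The smallest p values were those of Klf15, a factor known to drive amino acid catabolism genes in fasting, at 41.9 ± 6.69 FPKM in Chrna2fl/fl;AlbCre livers and 52.3 ± 1.85 FPKM in Chrna2fl/fl livers, and of Cebpb, at 105 ± 13.8 FPKM in Chrna2fl/fl;AlbCre livers and 130 ± 19.6 FPKM in Chrna2fl/fl livers. Among 11 amino acid transporters tested, 6 estimates were negative and 1 was lower at an unadjusted p under 0.05, against 29.7% and 3.02% of all genes. That was Slc16a10, a carrier of aromatic amino acids, at 11.5 ± 1.62 FPKM in Chrna2fl/fl;AlbCre livers and 18.9 ± 7.41 FPKM in Chrna2fl/fl livers, while Slc7a8, a carrier of neutral amino acids, was at 2.55 ± 0.65 FPKM in Chrna2fl/fl;AlbCre livers and 1.47 ± 0.85 FPKM in Chrna2fl/fl livers, with overlap.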

How the data were processed

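Livers of 3 Chrna2fl/fl;AlbCre and 3 Chrna2fl/fl mice after HFD plus CCl4 were compared. The authors isolated poly(A) RNA, prepared directional paired-end libraries, mapped reads to GRCm38 with STAR 2.7.8a and deposited FPKM per gene, estimated with RSEM 1.3.3; the submitters' processing notes also list cutadapt 2.3, FastQC 0.11.8 and MultiQC 1.7. The method scales FPKM by each library's total, so a shift of a few abundant genes moves all others.

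From these values, limma 3.58.1 in R 4.3.3 (lmFit, then eBayes with a trend) was run on log2(FPKM + 0.1). The filter kept 13943 genes averaging 0.5 FPKM or more over the 6 livers, and p-values were adjusted over all of them by the Benjamini-Hochberg method. The tests are two-sided. An exact permutation test of 3 against 3 cannot go below 0.1 and was not used. The labels name separate samples, and p-values measure the spread between them. Depth was read from low FPKM values, 86.7% to 90.7% of which were whole fragments within 0.15 of a fragment. FPKM holds no counts, so no counting interval was computed.

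The members, gene lists and tests were chosen with earlier results of these data known. Values in every liver are given for the 3 members with the smallest p in each pathway list (both for lysine) and the 3 with the highest mean, and of the other lists counts and the 2 genes with the smallest p, with Bckdk and Ppm1k added. The result of 1 further gene that the rule names is not reported here. Replicate letters were checked for pairing: correlations of same-letter deviations from the genotype means were -0.02, 0.06 and 0.02, so the libraries were not treated as pairs. Alternatives were pseudocounts of 1 and 0.01, other filters, a common sum, median-ratio, quantile and hepatocyte-marker scaling, other variance models, a letter block, and each library left out. Promoter sequences came from RefSeq and no protein sequence was used here.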

Additional observations from a re-analysis of the deposited data

How the results depend on the processing

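Over 13 alternatives that kept all 6 livers and the 6 that left one out, 34 of the 41 members kept the sign of their estimate and 7 did not. Of the members, 14 were lower at an unadjusted p under 0.05, and 3.02% of all genes. The members' number, with the share of all genes lower, was 31 with median-ratio scaling (7.78%), 25 with quantile normalization (6.58%), 8 with hepatocyte centring (1.58%), 7 with the unmoderated test (2.28%), and 7 to 19 with one library left out (2.07% to 3.79%; 8 without Chrna2fl/fl;AlbCre liver c, 7 without Chrna2fl/fl liver c). Members with no overlap numbered 20 (4.34% of all genes), against 31 with median-ratio scaling (10.8%), 6 with hepatocyte centring (1.71%) and 20 to 28 with one library left out (6.07% to 8.69%). Leaving out a library cannot undo a separation, so the last count could not fall below 20. The members' median of -0.33 became -0.52 with median-ratio scaling. With one library left out, 0 to 1 member passed the adjusted threshold and 0 to 1 was higher at an unadjusted p under 0.05 (Gcdh and Sdsl, both without Chrna2fl/fl liver b, when 2896 of 13988 genes were higher at that p). The replicate letter as a block, where letters do not pair the samples, gave 12 members lower at an unadjusted p under 0.05 and 0 past the adjusted threshold. The cause of these shifts was not tested, except that median-ratio scaling and hepatocyte centring shift every gene of a library alike. Signs turned for Amt with a common sum (0.0051), for Gcsh with median-ratio (-0.15), quantile (-0.10) and array-weight (-0.11) settings, for Tat (0.080), Gldc (0.023), Amt (0.10) and Bcat2 (0.033) with hepatocyte centring, and for Tat (0.12) and Hal (0.14) with array weights. With one library left out the estimates ran from -0.32 to 0.27 for Tat, -0.16 to 0.0047 for Gldc, -0.25 to 0.20 for Gcsh, -0.055 to 0.89 for Acmsd, -0.13 to 0.090 for Amt, -0.41 to 0.10 for Hal and -0.15 to 0.087 for Bcat2. Over all genes, 0 passed the adjusted threshold in the values as deposited with the limma trend fit, where 421 were lower and 1842 higher at an unadjusted p under 0.05. Other settings called 0 to 6 genes lower and 0 to 1 higher at the adjusted threshold, among them limma without the trend (6 and 1), array weights (3 and 1) and the unmoderated test (4 and 1), except the fit without Chrna2fl/fl liver b (15 and 96). Groups of 3 livers and unequal depth limit what these data can separate.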
